A study of Mus musculus with 16 samples.

Results

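The genes described here are 10 regulators of RNA splicing, stability and translation that are known for their roles in neurons: Rbfox1, Rbfox2, Rbfox3, Elavl2, Elavl3, Elavl4, Nova1, Ptbp1, Ptbp2 and Celf4. They were chosen by name, and all probes whose gene symbol, or an older alias of the same gene, was a listed name were taken. The array carries the older names A2bp1 for Rbfox1, Rbm9 for Rbfox2, D11Bwg0517e for Rbfox3 and Brunol4 for Celf4. Of the 25697 probes in the table, 18 belonged to 9 of the 10 genes, and no signal of Nova1 was analysed here. Of the 18 probes, 13 from 8 genes were bright enough to be tested.

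Hippocampal RNA was measured on Illumina MouseRef-8 v2 arrays, which read every probe as the average brightness of a set of beads. There were 16 arrays, each taken here as 1 mouse, with 4 arrays in each of 4 groups: wild-type (WT) mice and Mef2c-het mice at postnatal day (P) 1 and P30. Mef2c-het mice carry 1 copy of the gene for the transcription factor MEF2C in which exon 2 was deleted in the germline and so in every cell type, on a C57BL/6J background, and the WT mice were littermates. The arrays' labels call the Mef2c-het mice KO, and give neither sex, litter nor treatment, nor whether RNA of several mice was pooled. The whole hippocampus was taken, so that neurons, glia and vessels all contributed RNA. In such bulk RNA, fewer cells of a type and less RNA per cell cannot be told apart.

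Precursor mRNAs in neurons are spliced differently from those in other cells, and RNA-binding proteins set many of these choices. Ptbp1 holds neuronal exons out of mRNAs in progenitors and glia, and its close relative Ptbp2 takes its place as neurons form, before the Rbfox proteins act on exons of synaptic and ion channel genes in the mature cell. The Elavl proteins, also called Hu proteins, bind U-rich stretches of mRNAs and make many of them more stable, while Nova1 acts on exons of inhibitory synapse genes and Celf4 binds mRNAs of synaptic proteins in excitatory neurons.

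The arrays differed in background. Within each age the arrays fell into a larger and a smaller cluster by the correlation of their signals, and the smaller clusters held 5 arrays: WT P1 replicate 8, Mef2c-het P1 replicate 8, WT P30 replicates 6 and 7, and Mef2c-het P30 replicate 7. The 5th percentile of signal was 140 to 161.4 on these 5 arrays and 105.8 to 130.8 on the other 11. Each array had 12638 to 14150 probes with a detection p under 0.05. Values below are log2 signals after quantile normalisation of all 16 arrays, and a difference of 1 on this scale is a doubling of the signal. Background was not subtracted, so a difference on a dim probe understates the change more than one on a bright probe. The level of 1 probe cannot be read against the level of another, so genes are compared only by how their probes change across the arrays.

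Sequences before the gene starts are shown first because the CpG dinucleotide, a feature of many promoters active in all tissues, varies widely among these genes. The windows are the 250 bases before an annotated gene start in RefSeq, build GRCm38.p6, written 5′ to 3′ on the strand of the gene, with every CpG in capitals. Ptbp1 and Elavl3 fell with age, and Rbfox3 and Rbfox1 rose.

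Ptbp1, chr10:79854182-79854431, plus strand: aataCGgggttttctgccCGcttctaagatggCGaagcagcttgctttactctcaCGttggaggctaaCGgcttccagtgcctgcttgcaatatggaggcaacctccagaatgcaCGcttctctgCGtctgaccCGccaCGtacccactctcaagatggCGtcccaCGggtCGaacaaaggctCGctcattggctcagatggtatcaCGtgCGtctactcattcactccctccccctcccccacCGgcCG

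Elavl3, chr9:22052024-22052273, minus strand: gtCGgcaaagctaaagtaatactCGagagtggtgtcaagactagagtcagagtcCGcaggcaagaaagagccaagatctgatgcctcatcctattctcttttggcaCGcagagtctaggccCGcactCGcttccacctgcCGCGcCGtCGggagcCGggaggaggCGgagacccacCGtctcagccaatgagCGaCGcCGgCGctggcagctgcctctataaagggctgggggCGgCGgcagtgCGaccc

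Rbfox3, chr11:118761042-118761291, minus strand: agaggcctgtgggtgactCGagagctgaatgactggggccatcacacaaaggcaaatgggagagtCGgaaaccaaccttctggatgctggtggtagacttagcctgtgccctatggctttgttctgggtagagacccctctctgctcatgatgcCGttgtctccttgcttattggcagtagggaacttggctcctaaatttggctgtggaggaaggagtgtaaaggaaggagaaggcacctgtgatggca

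Rbfox1, first of 2 windows, chr16:5884543-5884792, plus strand: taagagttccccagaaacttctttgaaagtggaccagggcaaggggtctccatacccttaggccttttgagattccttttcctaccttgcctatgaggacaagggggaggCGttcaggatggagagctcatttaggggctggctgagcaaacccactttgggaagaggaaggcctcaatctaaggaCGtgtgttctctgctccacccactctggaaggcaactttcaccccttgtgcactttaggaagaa

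Rbfox1, second window, chr16:7069585-7069834, plus strand: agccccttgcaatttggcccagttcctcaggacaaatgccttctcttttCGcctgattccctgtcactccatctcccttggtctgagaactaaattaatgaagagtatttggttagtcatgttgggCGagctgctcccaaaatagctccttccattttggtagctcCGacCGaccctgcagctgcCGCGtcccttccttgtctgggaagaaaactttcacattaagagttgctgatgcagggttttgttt

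The window of Ptbp1 held 17 CpG dinucleotides, more than 76.5% of all 32851 windows, and that of Elavl3 held 20, more than 82.1%. The window of Rbfox3 held 3, more than 29.0% of all windows, and the windows of Rbfox1 held 2 and 6, more than 18.8% and 49.6%. Elavl2, which fell with age, had 6 windows with 10 to 21 CpG dinucleotides. Elavl4 had 4 windows, with 3, 5, 4 and 14. Its 3 tested probes were lower at P30 in WT, 1 of them with an adjusted p under 0.05. Whether the number of CpG dinucleotides goes with the direction of change was not tested. These windows were picked after the signals had been seen, and the starts used by the transcripts that the probes read were not tested, so the counts are a description. A pattern that only approximates MEF2 sites, CTA and TAG with 4 bases of any kind between them, was searched on either strand. It was in 0 of the 17 windows of these genes and in 3.2% of all windows. Variants with other end bases were not searched, so these values do not count MEF2 sites. A GC box (GGGCGG) was in 7 of the 17 windows and in 32.7% of all, a CCAAT box (CCAAT) in 11 and in 33.8%, and a TATA box (TATAAA) in 1 and in 12.4%, each searched on both strands. Some windows of Elavl2 and Elavl4 overlap and hold the same copies. With overlapping windows joined there were 13 regions, of which 4 held a GC box and 7 a CCAAT box. The 17 windows include those of Nova1 (11 CpG dinucleotides) and Ptbp2 (23), genes without a tested probe. Rbfox2 and Celf4 have no window here.

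Between P1 and P30 the regulators moved in both directions in WT hippocampus. With an adjusted p under 0.05, Rbfox1, Rbfox3 and Celf4 rose, and Ptbp1, Rbfox2, Elavl2, Elavl3 and 1 probe of Elavl4 fell. Ptbp1 changed most, to 35.3% of its P1 signal, and Rbfox3 rose most, by 2.34-fold. Of the 13 tested probes, 4 were higher and 7 lower at P30 with an adjusted p under 0.05, and 2 probes, both of Elavl4, did not pass. Change with age was the rule on these arrays: 28.0% of the 14777 probes tested were higher and 31.7% lower at P30 in WT by the same threshold, 59.7% in all. The median log2 difference was -0.41 over the 13 probes and -0.03 over all probes.

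**Figure D1:**
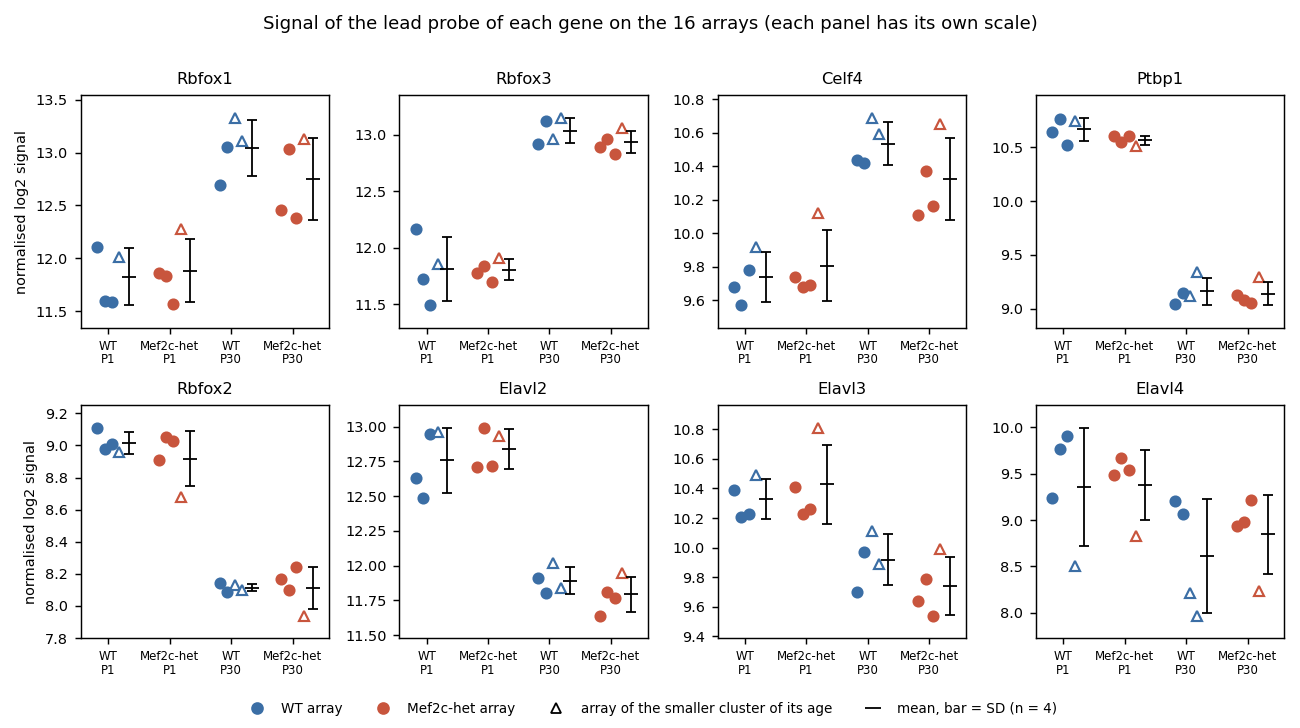
Normalised log2 signal (vertical axis, each panel with its own scale) of the most brightly read probe of each of the 8 genes on each of the 16 arrays, by group, with WT in blue, Mef2c-het in red, open triangles for the 5 arrays of the smaller clusters, and the mean and SD of the 4 arrays in black. Ptbp1, Rbfox2, Elavl2 and Elavl3 lie lower at P30 than at P1 in both genotypes with no overlap, Rbfox1 and Rbfox3 lie higher, and the Elavl4 probe is lowest on the triangles at each age.

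Ptbp1 was read by a probe for its transcript variant 2 (ILMN_3140788). Its signal was 10.64, 10.76, 10.52 and 10.74 on the WT arrays at P1 and 9.04, 9.15, 9.12 and 9.34 at P30. In Mef2c-het mice it was 10.60, 10.55, 10.60 and 10.51 at P1 and 9.13, 9.08, 9.05 and 9.29 at P30. Every P30 array lay below every P1 array, by more than the whole spread within either age. The log2 difference was -1.50 in WT (SE 0.0756, adjusted p = 4.9e-11) and -1.43 in Mef2c-het mice (adjusted p = 9.4e-11), and 98.2% of all probes tested had a higher value in WT. A second probe of Ptbp1, for transcript variant 1, and the single probe of Ptbp2, the neuronal relative of Ptbp1, had a detection p under 0.05 on no array. The exchange of Ptbp1 for Ptbp2 therefore could not be followed on its Ptbp2 side.

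The Rbfox family split. The proteins of this family bind the same short motif and switch exons in or out depending on where the motif lies, and Rbfox3 carries the NeuN antigen that is widely used to stain neurons. The Rbfox3 probe that was detected (ILMN_3110132) read 12.17, 11.72, 11.49 and 11.86 on the WT arrays at P1 and 12.92, 13.12, 12.96 and 13.15 at P30. In Mef2c-het mice it read 11.78, 11.84, 11.70 and 11.91 at P1 and 12.89, 12.96, 12.83 and 13.06 at P30. All P30 arrays were higher than all P1 arrays in both genotypes. The rise was 1.23 in WT (SE 0.11, adjusted p = 6.08e-08) and 1.13 in Mef2c-het mice (adjusted p = 1.78e-07), with 95% confidence intervals of 1.00 to 1.46 and 0.89 to 1.36.

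The Rbfox1 probe that was detected (ILMN_1238309) read 12.11, 11.60, 11.59 and 12.01 on the WT arrays at P1 and 12.69, 13.05, 13.33 and 13.11 at P30. In Mef2c-het mice it read 11.86, 11.83, 11.57 and 12.28 at P1 and 12.46, 13.03, 12.38 and 13.13 at P30. The ages did not overlap within either genotype, but the Mef2c-het arrays at P30 spread from 12.38 to 13.13, with replicates 3 and 6 low (SD 0.385, beside 0.265 on the WT arrays of that age). The rise was 1.22 in WT (SE 0.194, adjusted p = 4.29e-05) and 0.87 in Mef2c-het mice (adjusted p = 0.00102). Rbfox1 was brighter on the arrays of the smaller clusters, by 0.38 at P1 and 0.47 at P30, and its rise within the larger clusters alone was 1.10 in WT and 0.87 in Mef2c-het mice. The other probes, 2 of Rbfox1 and 1 of Rbfox3, were detected on no array.

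Rbfox2, which is made in many tissues, fell on both of its probes. On the brighter probe (ILMN_1222770) the WT arrays read 9.11, 8.98, 9.01 and 8.96 at P1 and 8.14, 8.09, 8.13 and 8.10 at P30, a fall to 53.5%. On the same probe the Mef2c-het arrays read 8.91, 9.05, 9.03 and 8.68 at P1 and 8.17, 8.10, 8.24 and 7.94 at P30. No P30 array reached the lowest P1 array, and the WT arrays at P30 lay within 8.09 to 8.14. The log2 difference was -0.90 in WT (adjusted p = 5.25e-08) and -0.81 in Mef2c-het mice (adjusted p = 2.13e-07). The dimmer probe (ILMN_2670527) gave smaller differences, of -0.41 (adjusted p = 0.000654) and -0.49 (adjusted p = 0.000147).

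Within each array the log2 signal of the Rbfox2 probe was subtracted from that of the Rbfox3 probe. The size of this gap depends on the probes, so only its shift with age was compared. It widened by 2.13 in WT and by 1.93 in Mef2c-het mice, and the gap between Rbfox1 and Rbfox2 widened by 2.12 and 1.67. In each of these 4 comparisons the ages did not overlap (two-sided exact permutation test, all 35 ways to divide the 8 arrays, p = 0.0286, which is the lowest p this design can give). After adjustment over the 12 tests (6 pairs of genes, each in both genotypes) p was 0.0686, above the threshold. Rbfox3 and Rbfox1 did not part measurably, with a shift of 0.01 in WT (exact permutation p = 0.971) and 0.26 in Mef2c-het mice (exact permutation p = 0.229).

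Celf4 rose on both of its probes. On the brighter probe (ILMN_1243635) the WT arrays read 9.68, 9.57, 9.78 and 9.92 at P1 and 10.44, 10.42, 10.69 and 10.59 at P30. The Mef2c-het arrays read 9.74, 9.68, 9.69 and 10.12 at P1 and 10.11, 10.37, 10.16 and 10.65 at P30. The ages were apart in WT, whereas in Mef2c-het mice the highest P1 array, replicate 8, lay just above the lowest P30 array. The rise was 0.80 in WT (SE 0.123, adjusted p = 3.06e-05) and 0.52 in Mef2c-het mice (adjusted p = 0.00177, exact permutation p = 0.0571). The dimmer probe (ILMN_2638850) rose by 0.95 (adjusted p = 3.89e-05) and 0.77 (adjusted p = 0.000298), with no overlap in either genotype. On the brighter probe the smaller clusters were higher by 0.33 at P1 and 0.34 at P30, and the rise within the larger clusters was 0.76 in WT and 0.51 in Mef2c-het mice.

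**Figure D2:**
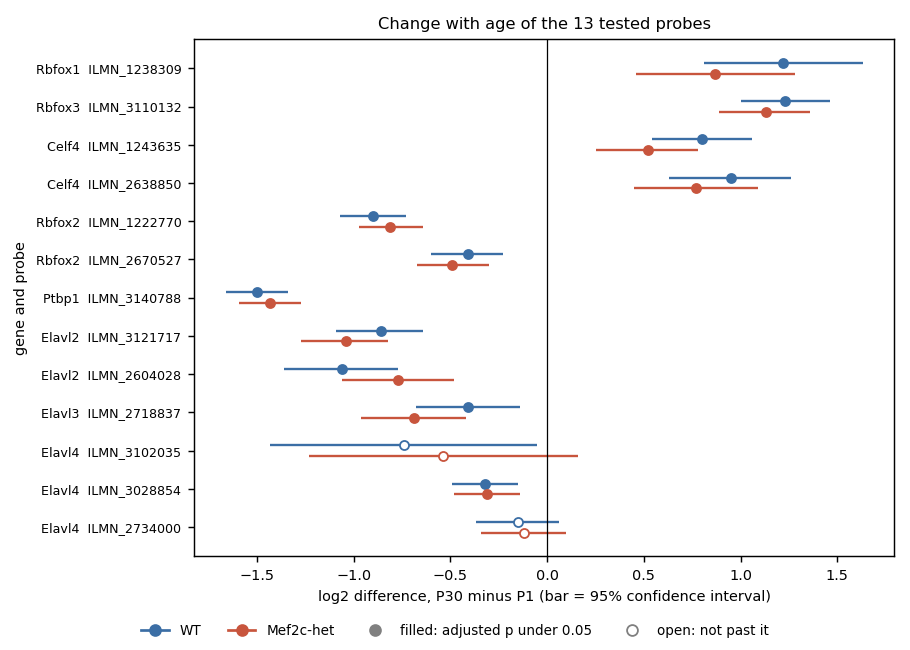
Log2 difference between P30 and P1 (horizontal axis) for each of the 13 tested probes, named by gene and probe on the vertical axis, in WT (blue) and Mef2c-het mice (red), with 95% confidence intervals and filled points for an adjusted p under 0.05. The 4 probes of Rbfox1, Rbfox3 and Celf4 lie to the right of 0 in both genotypes and the 9 others to the left, and 2 probes of Elavl4 have open points in both genotypes.

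Of the Elavl genes, Elavl2, Elavl3 and 1 of 3 Elavl4 probes fell with age with an adjusted p under 0.05. The remaining Elavl4 probes were also lower at P30 but did not pass. Elavl2 (HuB) fell on both of its probes. The brighter (ILMN_3121717) read 12.63, 12.49, 12.95 and 12.96 on the WT arrays at P1 and 11.91, 11.80, 12.02 and 11.84 at P30. On the Mef2c-het arrays it read 12.71, 12.99, 12.72 and 12.93 at P1 and 11.64, 11.81, 11.77 and 11.95 at P30. All P30 arrays lay below all P1 arrays. The log2 difference was -0.86 in WT (SE 0.106, adjusted p = 2.63e-06) and -1.04 in Mef2c-het mice (adjusted p = 2.94e-07). On the second probe (ILMN_2604028) the order of the genotypes was the other way round, with -1.06 in WT (adjusted p = 4.89e-06) and -0.77 in Mef2c-het mice (adjusted p = 0.000147).

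Elavl3 (HuC), which is made in neurons from soon after they stop dividing, fell less in WT. Its probe (ILMN_2718837) read 10.39, 10.21, 10.23 and 10.49 on the WT arrays at P1 and 9.70, 9.97, 10.11 and 9.89 at P30. The Mef2c-het arrays read 10.41, 10.23, 10.26 and 10.81 at P1 and 9.64, 9.79, 9.54 and 9.99 at P30. The ages did not overlap in either genotype, although in WT the gap between them was only that from 10.11 to 10.21. The log2 difference was -0.41 in WT (SE 0.128, adjusted p = 0.0113) and -0.69 in Mef2c-het mice (adjusted p = 0.000213). The difference between these falls was not past the threshold in the limma fit (-0.28, 95% confidence interval -0.66 to 0.11, adjusted p = 0.998). The gap between the Elavl2 and Elavl3 probes narrowed by 0.45 in WT, written as a shift of -0.45 (exact permutation p = 0.0286, adjusted p = 0.0686). In Mef2c-het mice the shift was -0.36 and the ages overlapped (exact permutation p = 0.0571, adjusted p = 0.114). Against the brightest Elavl4 probe the ages also overlapped, with shifts of -0.12 in WT and -0.51 in Mef2c-het mice for Elavl2 and of 0.33 and -0.15 for Elavl3 (exact permutation p from 0.2 to 0.886).

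Elavl4 (HuD), known for binding and stabilising the mRNA of the growth cone protein GAP-43, was read by 3 probes. All 3 were lower at P30 in both genotypes, and 1 passed the threshold. The probe ILMN_3028854 read 8.11, 8.05, 8.03 and 8.28 on the WT arrays at P1 and 7.66, 7.80, 7.86 and 7.88 at P30. In Mef2c-het mice it read 8.03, 8.03, 8.09 and 8.12 at P1 and 7.65, 7.78, 7.63 and 7.98 at P30. The ages were apart in both genotypes, and the fall on this dim probe was -0.32 in WT (adjusted p = 0.00266) and -0.31 in Mef2c-het mice (adjusted p = 0.00332).

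The brightest Elavl4 probe (ILMN_3102035) followed the array clusters. It read 9.24, 9.77 and 9.91 on the WT arrays of the larger cluster at P1 and 8.50 on that of the smaller, and 9.21 and 9.06 against 8.21 and 7.97 at P30. In Mef2c-het mice it read 9.48, 9.67 and 9.54 against 8.83 at P1, and 8.94, 8.98 and 9.22 against 8.24 at P30. At both ages the arrays of the smaller clusters were all below the others, by 0.94 at P1 and at P30 between the means. Over all arrays the age difference was -0.74 in WT (SE 0.327, adjusted p = 0.0624) and -0.54 in Mef2c-het mice (adjusted p = 0.176). Within the larger clusters alone it was -0.50 and -0.52, and with the cluster as a block in the fit -0.50 in WT (adjusted p = 0.00123) and -0.54 in Mef2c-het mice (adjusted p = 0.000604). Without WT P1 replicate 8 the WT value was -1.03 (adjusted p = 0.00914), without WT P30 replicate 2 it was -0.94 (adjusted p = 0.0261), and without WT P30 replicate 3 it was -0.89 (adjusted p = 0.0413). The dimmest probe (ILMN_2734000) was detected on 2 arrays of each group other than Mef2c-het P30, where it was detected on none, and its differences of -0.15 in WT (adjusted p = 0.21) and -0.12 in Mef2c-het mice (adjusted p = 0.346) did not pass. Without WT P1 replicate 8 the WT value of this probe was -0.24 (adjusted p = 0.0448).

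**Figure D3:**
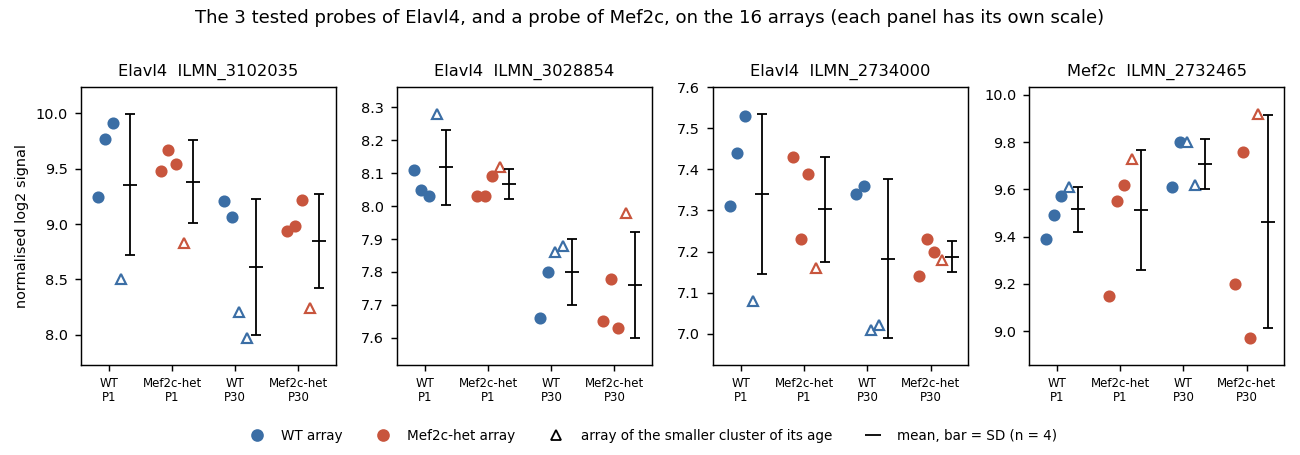
Normalised log2 signal (vertical axis, each panel with its own scale) of the 3 tested Elavl4 probes and of the brighter Mef2c probe on each of the 16 arrays, by group, with WT in blue, Mef2c-het in red, open triangles for the 5 arrays of the smaller clusters, and the mean and SD of the 4 arrays in black. On ILMN_3102035 the triangles lie below the circles in each group, on ILMN_3028854 they lie above them, and on the Mef2c probe the Mef2c-het arrays at P30 reach from 8.97 to 9.92.

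Signs were also compared within each cluster. The arrays of a cluster also entered the differences over all arrays, so this is not an independent check. The smaller clusters held 1 array of each group other than WT P30, where they held 2. Within the larger clusters all 13 probes had the sign of the age difference over all arrays in both genotypes. Within the smaller clusters this held for 13 probes in WT and 12 in Mef2c-het mice, where the exception was the dimmest Elavl4 probe. In Mef2c-het mice 4 of the 13 probes were higher at P30 and 7 lower with an adjusted p under 0.05, beside 26.9% and 31.4% of all probes (58.3% in all). Read from Xist and Y-linked genes, 3 WT and 2 Mef2c-het arrays at P1 and no array at P30 were of females, and the 11 probes called in each genotype were called in the same direction with sex as a covariate. The 2 age comparisons rest on separate arrays but share 1 normalisation and 1 estimate of the spread. The groups did not overlap for 11 of the 13 probes in WT (53.1% of all probes) and 10 in Mef2c-het mice (52.5%).

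Cell type markers moved over the same interval. All 7 oligodendrocyte markers rose in WT, their summed signal going from 1870 to 2350 at P1 to 92300 to 101000 at P30, and Mog and Mobp were detected on no WT array at P1. All 9 tested markers of progenitors and dividing cells fell, and their summed signal went from 5030 to 5850 down to 1590 to 1740. All 5 tested markers of immature neurons fell, Dcx by 4.55 and Tubb2b by 0.68, with summed signals of 47900 to 49000 at P1 and 20200 to 22700 at P30. Each sum in this paragraph is weighted to its brightest probes, here Tubb2b (means of 15.01 and 14.33). The size of its change therefore does not measure the change of a cell type. Of 7 tested neuronal markers 4 rose and 2 fell, and their summed signal went from 41800 to 47800 up to 68900 to 71300. Astrocyte markers rose in 6 of 7 cases (22100 to 25600 at P1, 37800 to 39100 at P30), all 5 markers of GABAergic interneurons rose (10200 to 11300, 24700 to 31000), and 5 of 6 microglial markers rose (2180 to 2700, 3610 to 3930). Of 6 hippocampal markers 5 were tested, and Emx2 was not. Of the tested endothelial, meningeal, blood, choroid plexus and hippocampal markers, 2, 1, 0, 1 and 1 rose and 1, 0, 2, 0 and 3 fell. In Mef2c-het mice 3 of the 5 markers of immature neurons and 8 of the 9 of progenitors and dividing cells fell, Dcx by 4.59, and all 6 tested microglial markers rose. The counts of oligodendrocyte, neuronal, astrocyte and interneuron markers were the same as in WT. The part of these shifts in the age differences of the regulators was not tested.

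Other RNA-binding proteins give the setting for these changes, each counted on its brightest tested probe. Over all 10803 genes tested in this way, 29.0% were higher and 32.8% lower at P30 in WT. The heterogeneous nuclear ribonucleoproteins and SR proteins, which package precursor mRNA and mark exons in all cell types, fell nearly throughout. In WT 24 of 29 tested fell, 1 rose and 4 did not pass, with a median of -0.45 beside -0.03 over all genes. Hnrnpa1 fell by 2.16 (SE 0.211, adjusted p = 1.74e-07), and its second probe by 0.54. Hnrnpab fell by 1.22 (adjusted p = 9.71e-08) and Hnrnph1 by 1.12 (adjusted p = 3.8e-07), the latter with 4 further probes that fell by 0.63 to 1.09. The gene that rose was Pcbp3, a poly(C)-binding protein, up by 0.93 (adjusted p = 2.73e-06). In Mef2c-het mice, where 27.9% of all genes were higher and 33.0% lower at P30, 24 of the 29 fell and 1 rose.

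Splicing regulators related to the 10 genes did not share a direction. Of 14 tested, 5 rose, 6 fell and 3 did not pass in WT, with a median of 0.08, and in Mef2c-het mice 3 rose and 5 fell. With sex as a covariate 3 rose in WT. The muscleblind-like proteins, which drive the change from fetal to adult splicing, rose: Mbnl2 by 2.48 (SE 0.0841, adjusted p = 4.83e-13), with a second probe up by 1.85, and Mbnl1 by 1.04 (adjusted p = 1.03e-08). Raver2, a partner of Ptbp proteins, rose by 0.48 (adjusted p = 0.000558). Celf2, of the same family as Celf4, fell by 1.61 (adjusted p = 2.23e-06), while its second probe gave -1.14 with an SE of 0.612 and did not pass (adjusted p = 0.121). Khdrbs1 (Sam68) fell by 0.95 (adjusted p = 2.01e-06) and Khdrbs2 by 0.61 (adjusted p = 6.61e-05).

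Proteins of mRNA stability, transport and translation gave 3 that rose, 9 that fell and 6 that did not pass of 18 tested in WT, with the same counts in Mef2c-het mice and a WT median of -0.48. With the arrays scaled to a common median, 1 rose in WT. The brightest probe of Igf2bp3, an mRNA-binding protein of fetal tissue, was detected on all WT arrays at P1 and on none at P30. The signal of this probe was at least 5.09-fold lower at P30. A second Igf2bp3 probe gave a smaller log2 difference in WT, of -1.9 (adjusted p = 4.87e-10). Igf2bp2, detected on all 4 WT arrays at P1 and on 2 of 4 at P30, fell by 1.45 (adjusted p = 1.14e-10), to a mean of 7.33 that was level with the dimmest detected probes. Caprin1, of RNA granules, fell by 0.86 (adjusted p = 8.52e-07). Cpeb1, which controls polyadenylation in the cytoplasm, was detected on 2 of 4 WT arrays at P1 and on all 4 at P30, and rose by 0.91 (adjusted p = 2.11e-07) from a P1 mean near background. Stau2, which carries mRNA into dendrites, rose by 0.23 (adjusted p = 0.00355).

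**Figure D4:**
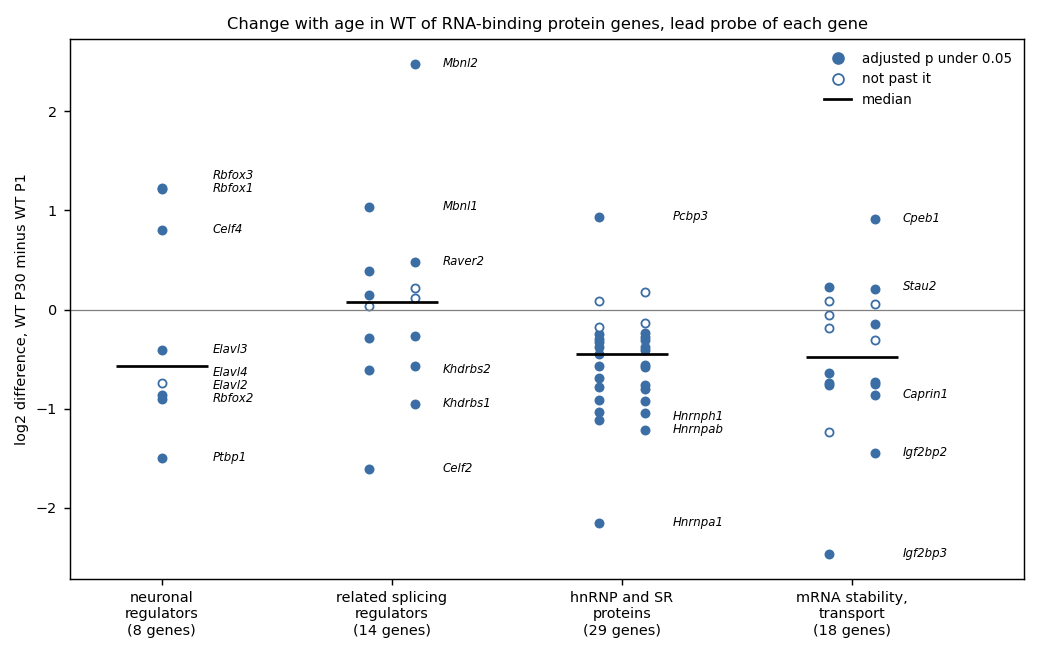
Log2 difference between P30 and P1 in WT (vertical axis) for the brightest tested probe of each gene in 4 lists of RNA-binding proteins (horizontal axis, with the number of genes), filled where the adjusted p was under 0.05, with the median of each list as a black line. The hnRNP and SR proteins lie mostly below 0 (median -0.45), the neuronal regulators and their relatives lie on both sides, and the points of Rbfox1 and Rbfox3 coincide at 1.22 and 1.23.

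The 3 tested mRNAs of a list that these proteins are known to act on also changed with age. Over all 10803 genes, 29.0% were higher and 32.8% lower at P30 in WT. Dlg4, which encodes the synaptic scaffold PSD-95 and whose mRNA is kept low in non-neuronal cells through an exon that the Ptbp proteins repress, rose by 1.75 in WT (SE 0.0841, adjusted p = 2.78e-11) and by 1.56 in Mef2c-het mice (adjusted p = 1.15e-10). Vamp1, a vesicle protein whose mRNA level is promoted by Rbfox1, rose by 1.95 (adjusted p = 7.65e-13) and 1.81 (adjusted p = 1.91e-12). Gap43, the mRNA bound by Elavl4, fell by 2.18 (SE 0.376, adjusted p = 9.66e-05) in WT, and in Mef2c-het mice it fell by 1.58 (adjusted p = 0.00172). The probes read total mRNA and not exon inclusion, so no change of splicing was measured. Whether the regulators had a part in these changes was not tested.

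By the root mean square difference of their centred signals over the 16 arrays, the genes most like Rbfox3 among the 10803 were Creld1 (0.0847), Klhl26 (0.0903) and Ank (0.0989). Those most like Ptbp1 were Nsmce1 (0.0712), H3f3a (0.0813) and Nsmce2 (0.0897).

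The question of the genotype comparison was whether loss of 1 Mef2c copy shifts these regulators. The targeted gene was examined first. Of 3 Mef2c probes 2 were tested, and whether either reads the deleted exon is not given in the sources used here. The brighter (ILMN_2732465) read 9.39, 9.49, 9.57 and 9.61 on the WT arrays at P1, 9.15, 9.55, 9.62 and 9.73 on the Mef2c-het arrays at P1, 9.61, 9.80, 9.80 and 9.62 on the WT arrays at P30 and 9.20, 9.76, 8.97 and 9.92 on the Mef2c-het arrays at P30. The second (ILMN_2887992) read 8.31, 8.31, 8.46 and 8.47, then 8.19, 8.44, 8.40 and 8.79, then 8.62, 8.59, 8.96 and 8.70, and 8.16, 8.42, 8.16 and 8.95 in the same order of groups. The groups overlapped at both ages, with Mef2c-het replicates 3 and 6 lowest at P30 and replicate 7 as high as WT. The log2 differences at P30 were -0.25 (exact permutation p = 0.371) and -0.29 (exact permutation p = 0.2), and at P1 -0.01 and 0.07, so that Mef2c signal on these probes did not separate the labelled genotypes. The labels were used as given.

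None of the 13 probes differed between Mef2c-het and WT mice with an adjusted p under 0.05 at P1 or P30 in the limma fit, and 0 had an unadjusted p under 0.05. Over all probes, 0.0135% passed the adjusted threshold at P1 and 0.00677% at P30, and 2.28% and 2.84% had an unadjusted p under 0.05. For none of the 13 probes did the groups stand apart, beside 1.42% of all probes at P1 and 1.89% at P30. At P1 the differences lay between -0.13, on the second Elavl2 probe (95% confidence interval -0.43 to 0.16, exact permutation p = 0.4), and 0.10. Leaving out 1 array, the value of that Elavl2 probe ranged from -0.21, without WT P1 replicate 1, to -0.03, without WT P1 replicate 5. The confidence intervals of the 13 probes reached from -0.67 to 0.72 at P1 and from -0.70 to 0.92 at P30, the positive ends being those of the Elavl4 probe that followed the clusters.

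At P30 the differences lay between -0.29 and 0.23, and the largest in size was that of Rbfox1. It was lower by 0.29 in Mef2c-het mice (95% confidence interval -0.70 to 0.12, adjusted p = 0.994, exact permutation p = 0.257), or 81.6% of WT. Leaving out 1 array, it ranged from -0.42, without Mef2c-het P30 replicate 7, to -0.17, without Mef2c-het P30 replicate 6. Within the larger clusters Rbfox1 was lower by 0.24 in Mef2c-het mice, on 3 arrays against 2, and within the smaller by 0.09, on 1 array against 2. The sign over all arrays, which these same arrays helped to set, was kept by 11 of the 13 probes in the larger cluster at P1 and 10 at P30. In the smaller clusters it was kept by 8 and 6, where 1 Mef2c-het array met 1 WT array at P1 and 2 at P30. The smallest p at P30 was that of the brighter Celf4 probe, -0.21 (95% confidence interval -0.47 to 0.05, limma p = 0.104, exact permutation p = 0.171), which was at -0.22 within the larger clusters and 0.01 within the smaller. For Ptbp1 the interval at P30 was narrow, -0.19 to 0.13 around -0.03, and at P1 it was -0.26 to 0.06 around -0.10. For Rbfox3 the differences were 0.00 (-0.24 to 0.23) at P1 and -0.11 (-0.34 to 0.13) at P30.

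**Figure D5:**
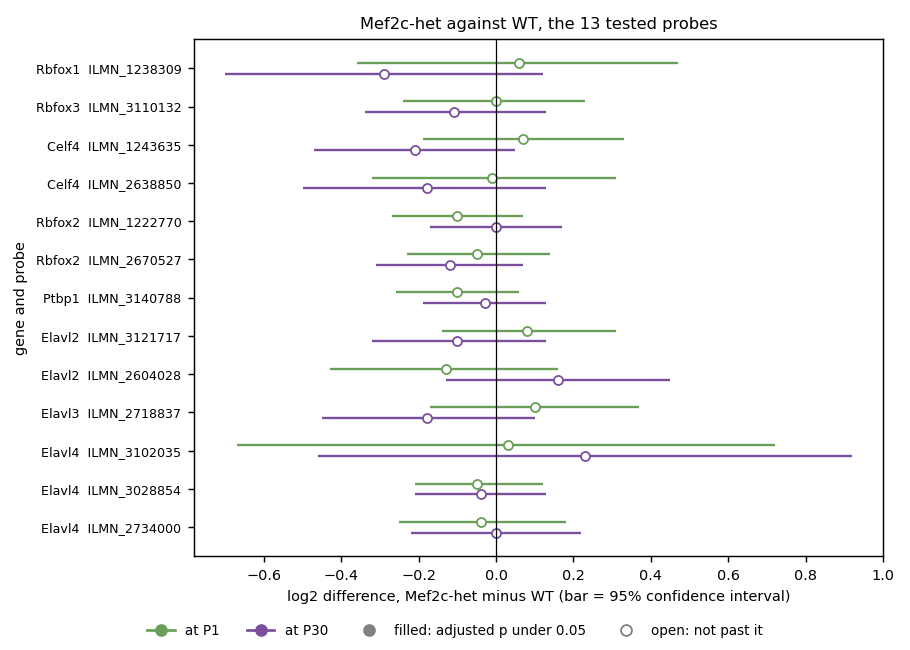
Log2 difference between Mef2c-het and WT mice (horizontal axis) for each of the 13 tested probes, named by gene and probe on the vertical axis, at P1 (green) and P30 (purple), with 95% confidence intervals and open points where the adjusted p was not under 0.05. All points are open, every interval includes 0, and the widest is that of ILMN_3102035 of Elavl4.

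The change with age did not differ between the genotypes past the threshold for any of the 13 probes, and 0 had an unadjusted p under 0.05, beside 2.96% of all probes. The genotype effect at P30 minus that at P1 ranged from -0.35, for Rbfox1 (95% confidence interval -0.93 to 0.23), to 0.29, for the second Elavl2 probe (-0.12 to 0.71), each with an adjusted p of 0.998 in the limma fit. For Rbfox1 it ranged from -0.48, without Mef2c-het P30 replicate 7, to -0.22, without Mef2c-het P1 replicate 8. The smallest unadjusted limma p was that of the brighter Celf4 probe (0.123), whose value was -0.28 (-0.65 to 0.09).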

How the data were processed

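Hippocampal RNA was hybridised to 16 Illumina MouseRef-8 v2 arrays, 4 per group. The authors deposited, for each probe and array, the mean bead intensity on a linear scale that was not yet normalised, the detection p-value (from negative controls on the array), the beads' standard error in units of intensity, and how many beads were read (a whole-number count). The submitters' processing notes name lumi and limma, and the paper's methods state log2 transformation and quantile normalisation. Scanning and background settings, and the genome build, are not given in the sources used here.

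Here the deposited intensities were log2 transformed and quantile normalised over all 16 arrays. A probe was kept (14777 of 25697) where 4 or more arrays gave it a detection p under 0.05. Group means were fitted with limma 3.58.1 in R 4.3.3 (lmFit, eBayes, two-sided, Benjamini-Hochberg over all 14777 probes), and the adjusted p threshold was 0.05. For single probes an exact permutation test over all 35 divisions of the arrays into equal groups was added. p-values measure the spread between arrays, which mixes differences between mice, whose litters are unknown, with those between the array clusters. Probes were named through Entrez numbers, accessions or symbols matched to RefSeq genes of GRCm38.p6 for 25376 probes. A gene's brightest tested probe stood for it in lists and pairs. Of 14 planned tests of pairs, the 2 of Ptbp2 and Ptbp1 were not run because Ptbp2 was not detected, so adjustment was over 12. The fit was tested on simulated data with independent noise on each array and no array clusters, so that test does not cover the clusters.

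The genes, lists, markers and tests were chosen with earlier results of these data known. All probes of the 10 genes are described. The lists were related splicing regulators, hnRNP and SR proteins, proteins of mRNA stability, transport and translation, mRNAs that the regulators act on, and cell type markers; 1 mRNA of the fourth list is not reported here. From the first 3 lists the 3 largest rises and falls with age in WT whose groups did not overlap are named, and for Rbfox3 and Ptbp1 the 3 genes of nearest profile. The 13 tested probes were read from 22 to 60 beads, with a standard error over the beads of 1.70% to 8.97% of the signal (median 3.93%), and the 4 arrays per group limit the precision. Alternatives were normexp background correction (offset of 16), cyclic loess or median scaling in place of quantiles, a filter at a detection p under 0.01 or none, trend and robust variances, a single probe per gene, blocks for the array clusters or for the replicate number, a sex covariate, the 8 arrays of an age alone, and leaving out each array. Figures were drawn with matplotlib 3.10.9 in Python 3.11.15.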

Additional observations from a re-analysis of the deposited data

Results flagged for a closer look

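The brighter Celf4 probe (ILMN_1243635) had 1 array far from the other 3 of its group. Mef2c-het P1 replicate 8 read 10.12, and the nearest other array of the group read 9.74, so that this gap made up 0.878 of the range of the group. This array belongs to the smaller cluster at P1, and WT P1 replicate 8, the other array of that cluster, was the highest of its group at 9.92. Of 52 groups of 4 arrays examined over the 13 tested probes, 1 held such an array, where chance alone gives 2.6.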

How the results depend on the processing

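Of the age differences of the 13 probes, those with an adjusted p under 0.05 kept their direction and their side of the threshold under every alternative run, and none of the genotype counts of these probes left 0. The dimmest Elavl4 probe turned with sex as a covariate, to 0.05 in WT and 0.02 in Mef2c-het mice. Sex was read from the arrays, 5 at P1 and 0 at P30 as female. With 1 probe per gene, 4 fell with age in each genotype. With the array cluster as a block 2 hnRNP and SR genes rose in each genotype in place of 1, with median scaling 1 of the mRNA stability list rose in WT in place of 3, and with sex 3 related splicing regulators rose in WT in place of 5. The shift between Elavl2 and Elavl4 in WT was 0.13 under normexp. Sizes also moved under normexp. The dimmer Celf4 probe rose by 1.26 in WT and 1.05 in Mef2c-het mice, in place of 0.95 and 0.77. The brighter Celf4 probe rose by 0.9 and 0.58, in place of 0.8 and 0.52.

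Leaving out 1 array, the number of the 13 probes that were lower at P30 in WT ranged from 7 to 9. The shift between paralogues in WT ranged from -0.35 to 0.23 for Elavl2 and Elavl4 and from -0.07 to 0.13 for Rbfox3 and Rbfox1, and in Mef2c-het mice from -0.44 to 0.16 for Elavl3 and Elavl4. In Mef2c-het mice 1 to 2 hnRNP and SR genes rose. Over all probes 0 to 2 differed between genotypes at P1 and 1 to 2 at P30, with 2 and 1 in the full data.

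The probes that differed between genotypes numbered 0 at P1 with median scaling, with sex, with the 8 arrays of P1 alone and with the replicate number as a block, 1 with cyclic loess or no filter and 3 with normexp, and 0 at P30 with median scaling or that block. The labels do not say whether the replicate numbers pair the mice. In their deviations from group means, same-numbered arrays correlated at 0.0909, 0.397 and 0.82 at P1 and 0.17, -0.522 and 0.697 at P30. Arrays of different numbers correlated at -0.591 to 0.493 at P1 and -0.772 to 0.715 at P30, so these values cannot settle it. With the block Rbfox1 at P30 was lower by 0.37 in Mef2c-het mice, written as -0.37, and 0 of the 13 probes passed. Causes of these shifts were not tested. Over all probes the median age difference was between -0.07 and 0.00 under each scaling.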
